A study of Mus musculus with 24 samples.

Results

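Described here are 38 mouse genes of the cell cycle and DNA replication, measured by RNA-seq in brain microglia, the resident macrophages of the brain. They were taken by gene symbol from a table of read counts of 55434 genes, and all 38 were in the table and passed the low-count filter in each fit. The series asks about the kinase gene Ikbke in lupus-prone mice with neuropsychiatric disease, and holds 24 libraries in 8 groups of 3. Adult microglia came from untreated 16-week-old MRL/lpr mice and untreated 16-week-old MRL/MpJ mice. The other 6 groups were microglia of neonatal MRL/lpr mice, cultured for 48 h in medium with 10% fetal bovine serum and then exposed for 6 h to a mixture of interferon gamma (IFNg), interferon alpha (IFNa), tumour necrosis factor alpha (TNFa) and interleukin 6 (IL-6), to each of these alone, or left unstimulated. All cells were released from brain by enzymes and selected on magnetic beads for CD11b, a surface protein that other myeloid cells and natural killer cells also carry. The lpr allele disrupts Fas, and mice of that strain come down with a disease like lupus, for which MRL/MpJ serves as the background strain. No MRL/MpJ cells were cultured here, so every cytokine comparison is within MRL/lpr. Whether the 3 libraries of a group came from separate animals, pools or cultures is not in the labels, so p-values measure the spread between these libraries, which may be technical.

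A cell that leaves rest makes D-type cyclins (Ccnd1, Ccnd2, Ccnd3), which with their kinases release E2F transcription factors from the RB proteins. E2F factors then drive genes that load the MCM helicase on origins (Cdc6, Cdt1, Mcm2 to Mcm7) and genes that feed and run DNA synthesis (Pcna, Rrm1, Rrm2, Tyms). Mitotic genes such as Cdk1, Ccnb1, Plk1 and Mki67 come on later, and inhibitors such as Cdkn1a (p21) and Cdkn1b (p27) hold the kinases back. Adult microglia divide rarely and renew slowly, while neonatal microglia still proliferate. RNA of a cell cycle gene is no count of dividing cells, and in RNA of many cells fewer cycling cells and less RNA per cell cannot be told apart.

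The 6 MCM genes encode the ring-shaped helicase that opens DNA at origins. Stretches upstream of 4 of them are shown because the mixture lowered Mcm2, Mcm3 and Mcm5 while Mcm6 was not called with it and rose with IFNa, as described below. Each line gives bases 200 to 1 before the RefSeq start, 5′ to 3′ along the gene (GRCm38.p6), with matched letters in capitals.
Mcm2, chr6:88898781-88898980, minus strand: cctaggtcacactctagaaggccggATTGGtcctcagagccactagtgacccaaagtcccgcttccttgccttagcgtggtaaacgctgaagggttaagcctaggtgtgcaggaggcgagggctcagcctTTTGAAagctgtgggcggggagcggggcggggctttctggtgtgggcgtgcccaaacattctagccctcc
Mcm3, chr1:20820313-20820512, minus strand: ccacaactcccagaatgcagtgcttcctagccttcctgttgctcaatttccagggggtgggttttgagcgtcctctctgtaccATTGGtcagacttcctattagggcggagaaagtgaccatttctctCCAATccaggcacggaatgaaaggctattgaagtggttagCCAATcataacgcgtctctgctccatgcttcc
Mcm5, chr8:75109309-75109508, plus strand: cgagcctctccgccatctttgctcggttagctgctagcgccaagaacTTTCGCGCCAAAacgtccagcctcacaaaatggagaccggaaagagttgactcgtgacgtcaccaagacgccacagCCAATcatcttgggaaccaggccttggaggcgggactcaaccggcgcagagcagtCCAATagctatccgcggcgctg
Mcm6, chr1:128359706-128359905, minus strand: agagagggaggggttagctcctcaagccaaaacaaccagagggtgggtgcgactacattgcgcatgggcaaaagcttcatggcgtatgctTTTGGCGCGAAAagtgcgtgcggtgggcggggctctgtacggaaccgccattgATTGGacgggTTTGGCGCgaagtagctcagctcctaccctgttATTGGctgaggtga
Capitals mark 3 motifs sought on both strands: an E2F set (TTTCCCGC, TTTGGCGC, TTTCGCGC or TTTGCCGC), the CCAAT box bound by NF-Y, and the cell cycle homology region letters TTTGAA. Mcm6 held 3 E2F matches, 2 of which overlap, and Mcm5 held 2 that overlap, while the stretches of Mcm2 and Mcm3 held 0. Each of the 4 held 1 to 3 CCAAT boxes, and Mcm2 held 1 TTTGAA. The mixture also lowered Mcm4 and Mcm7, which are not shown. In the 250 bases before the start, entry 1 of Mcm7 held 1 E2F match and 2 CCAAT boxes, and entry 2 held 0 and 1. RefSeq promoters were at hand for 31 of the 38 genes, and Mcm4 was not among them. In the 250 bases before the start, the E2F letters were in 5 of these 31 and in 1.91% of 27025 promoters, CCAAT was in 21 of 31 and in 34.5%, and TTTGAA was in 6 of 31 and in 4398 of the 27025. Of 2 elements read by interferon-driven factors, the ISRE was in 0 of the 31 and in 3.04% of all promoters, and the GAS letters TTCNNNGAA were in 1 of the 31, Mcm5, and in 7.18% of all. These are letter matches and not binding sites.

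Libraries held 10084927 to 19316994 counts, of which 16212 to 42075 fell on the 38 genes. Levels below are CPM, counts scaled for library size, here with TMM factors over all 24 libraries, as mean ± SD with n = 3 per group, and libraries are listed from replicate 1 to 3. CPM is not divided by gene length, so it compares groups for 1 gene and not genes with each other. Log2 fold changes, given ± SE, come from edgeR fits of their own: 1 of the 6 adult libraries, 1 of the 18 neonatal libraries and 1 of all 24. A gene is called, and said to rise or fall, at an adjusted p under 0.05 (quasi-likelihood test, Benjamini-Hochberg over all genes tested). Calls already favour groups that lie apart, so a lack of overlap among called genes is a description and adds no support. It was not counted over all genes. All 10 microglial markers were detected in every group, with summed levels of 35320 to 39450 CPM in adult MRL/lpr, 66220 to 70840 in adult MRL/MpJ and 6310 to 9002 in the neonatal libraries. Fas was too low to check the strain labels, at 0.306 to 1.43 CPM in adult MRL/lpr and 0.212 to 0.72 in adult MRL/MpJ.

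Summed by role, the genes of replication and mitosis were lower in both adult groups than in any neonatal group, and the sums are descriptions without a test. The 9 genes of licensing and helicase summed to 193 ± 7.96 CPM in adult MRL/lpr, 256 ± 23.4 in adult MRL/MpJ, 485 ± 28.9 with the mixture, 414 ± 41.7 with IFNg, 634 ± 64.9 with IFNa, 380 ± 19.8 with TNFa, 423 ± 40.3 with IL-6 and 553 ± 34.4 in unstimulated cells. The 6 genes of S phase summed to 121 ± 7.71 CPM in adult MRL/lpr, 165 ± 11.6 in adult MRL/MpJ, 394 ± 26.8 with TNFa and 618 ± 38.2 in unstimulated cells, with the other 4 neonatal groups between these last values. Among the 15 genes of G2 and mitosis the spread between neonatal replicates was wide. Their sum was 185 ± 54.3 CPM with the mixture, against 289 ± 76.3 in unstimulated cells, and replicate 1 had the highest sum in each of the 6 neonatal groups, at 244 to 375 CPM. G1 cyclins and inhibitor genes had their highest sums with the mixture: it had 905 ± 390 CPM of the 4 G1 cyclins and 917 ± 157 of the 4 genes of inhibitors and Ccng2, against 274 ± 80.7 and 304 ± 39.5 in unstimulated cells. Of the inhibitor sum, Cdkn1a made up 838 CPM with the mixture and 213 in unstimulated cells. The means of Cdkn1b and Cdkn2c were lower, at 21.4 and 12.9 CPM with the mixture and 29.8 and 22.5 in unstimulated cells.

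**Figure D1:**
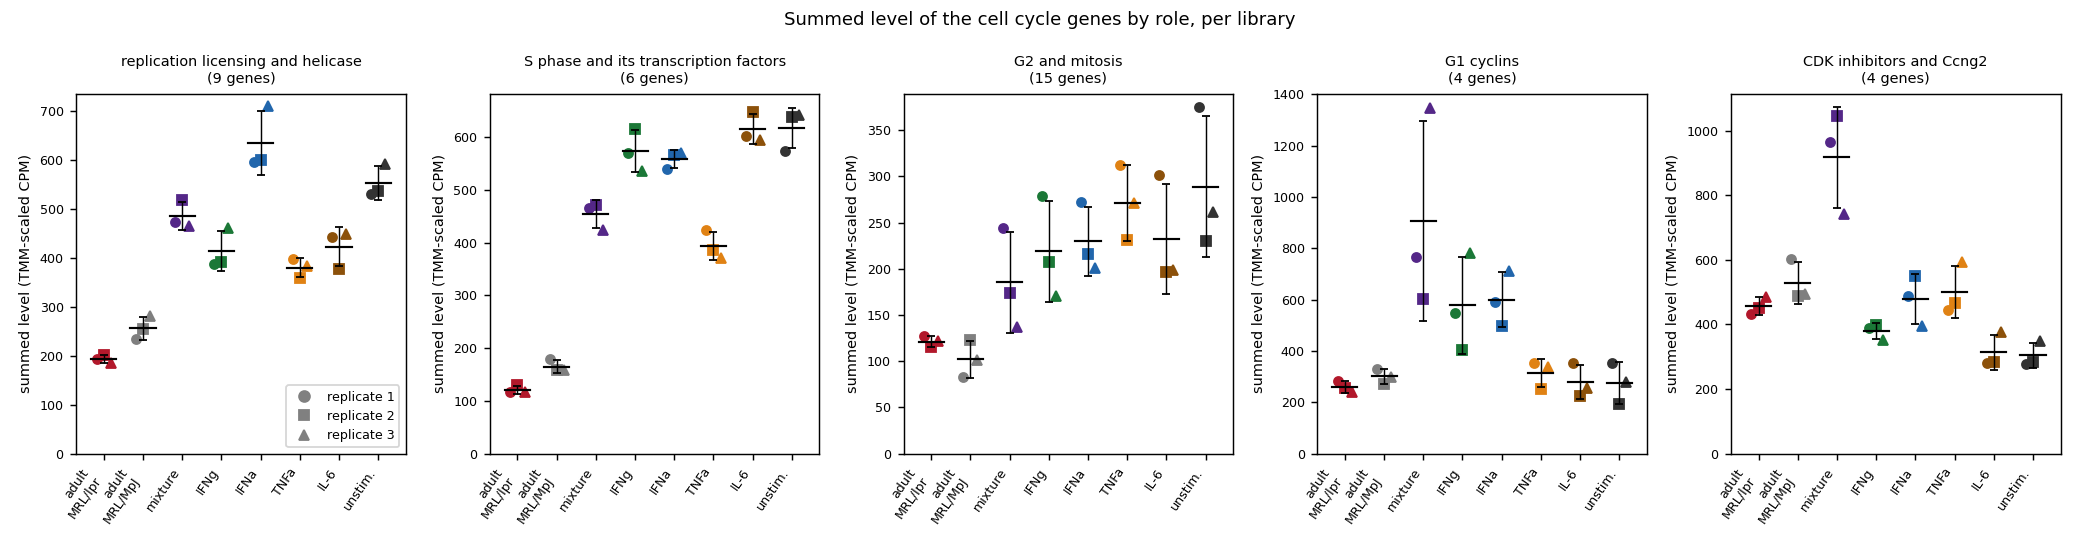
Summed TMM-scaled CPM (y axis, from 0) of the genes of each role in every library, with groups on the x axis; symbols are replicates, bars the mean and whiskers the SD (n = 3). Adult libraries lie lowest for licensing and S phase, and the mixture has the highest means for G1 cyclins and inhibitors, at 905 and 917 CPM.

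With all cytokines together, 20 of the 38 genes were called against unstimulated cells, 4 higher and 16 lower, while 32% of the 14626 genes tested were called (15.7% higher and 16.4% lower). Cdkn1a and Ccnd1 rose most, Ccnd3 and Cdt1 rose less, and 5 of the 6 MCM genes, E2f1, E2f2, Pcna, Rrm1 and 6 mitotic genes fell. The median log2 fold change of the 38 genes was -0.60, beside -0.05 over all genes tested. With the replicate number as a block, a fit the pairing of the neonatal libraries calls for, 29 genes were called, 5 higher and 24 lower, beside 20.5% of all genes higher and 22.6% lower in that fit. With libraries scaled by total counts alone the split was 2 higher and 23 lower, beside 10.6% of all genes higher and 34.1% lower. That scaling shifts the median of all genes by -0.415.

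Mcm2 (mm10 chr6:88883474-88898780, minus strand), a helicase subunit, had 25.4, 17.7 and 18.5 CPM with the mixture, against 54.1, 44.8 and 44.1 in unstimulated cells. All mixture libraries lay below all unstimulated ones, with a log2 fold change of -1.27 ± 0.19 and an adjusted p of 5.97e-05. Mcm3 (chr1:20802968-20820312, minus strand) had 30.3, 26.0 and 34.3 CPM, against 64.5, 68.1 and 77.2 in unstimulated cells (-1.27 ± 0.20, adjusted p = 0.000138). Mcm4, Mcm5 and Mcm7 were at -1.03, -0.92 and -0.89 on the log2 scale, without overlap between the groups. Mcm7 contains 3 microRNA genes on its strand and overlaps 2 genes on the other, and reads of overlapping genes cannot be assigned with certainty since the sources used here do not give the counting step or how it used strand. Mcm6 (chr1:128331590-128359664, minus strand) was the MCM gene not called, with 155, 194 and 119 CPM in mixture cells and 119, 137 and 148 in unstimulated cells (0.16 ± 0.17, adjusted p = 0.55). Cdt1 (mm10 chr8:122568015-122573554, plus strand), which brings the helicase to origins, rose to 130.5, 169.6 and 185 CPM with the mixture, against 91.7, 101 and 109 in unstimulated cells (0.63 ± 0.18, adjusted p = 0.0135). Cdt1 overlaps Gm20388 on its own strand, so its counts are uncertain in the same way as those of Mcm7. Every mixture library was above every unstimulated one for Cdt1, but with total counts alone it was not called (0.21, adjusted p = 0.244). Cdc6 and Gins2, a loading factor and a part of the active helicase, were not called, at -0.60 and -0.32.

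**Figure D2:**
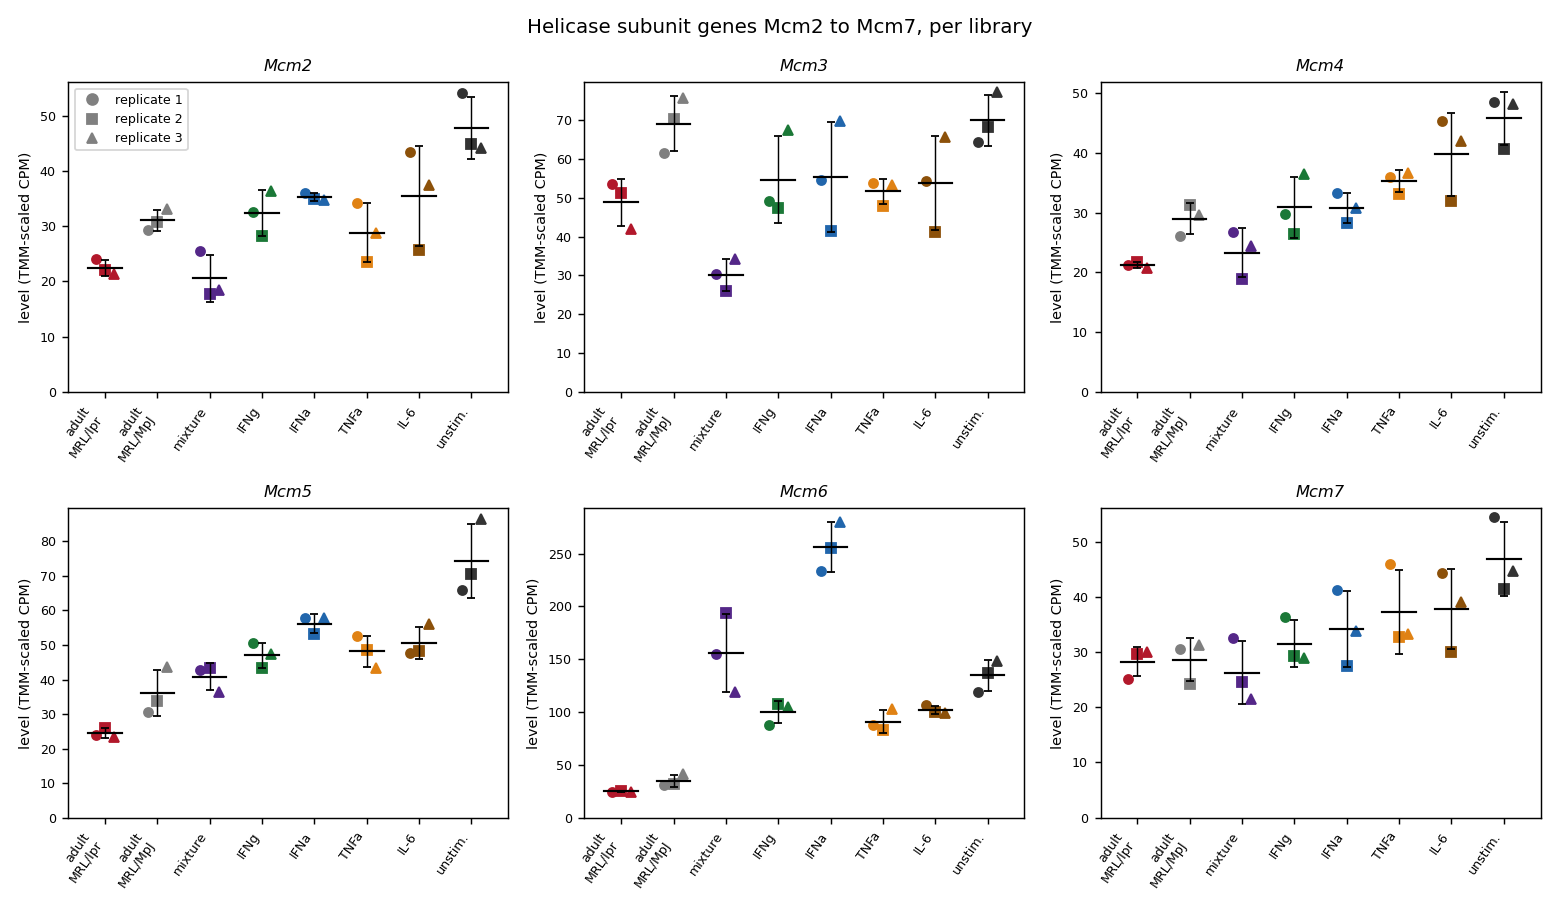
TMM-scaled CPM (y axis, from 0) of Mcm2 to Mcm7 in every library by group (x axis); symbols are replicates, bars the mean and whiskers the SD (n = 3). Mcm6 averages 256 CPM with IFNa and 135 in unstimulated cells, while the other 5 genes have lower means with each cytokine than without.

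Of the S phase genes, E2f2 and E2f1, which activate replication genes, fell most. E2f2 had 2.37, 2.19 and 2.52 CPM with the mixture, against 7.14, 5.47 and 4.75 in unstimulated cells (-1.34 ± 0.32, adjusted p = 0.00409). E2f1 (mm10 chr2:154559407-154569892, minus strand) had 17.0, 17.6 and 18.9 CPM with the mixture, against 35.4, 38.1 and 40.0 in unstimulated cells (-1.14 ± 0.19, adjusted p = 0.000183). Neither gene's groups overlapped. Rrm1, the large subunit of ribonucleotide reductase, was at -0.62, and Pcna, the sliding clamp of DNA polymerase, at -0.41, both lower. The small subunit gene Rrm2 was called only with the replicate block (-1.03, adjusted p = 0.000291, against 0.135 without it), and Tyms, which makes thymidylate, was at -0.05.

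Called mitotic genes were Kif20a, Kif11, Aurkb, Ccna2, Plk1 and Mki67, all lower. Kif20a, a kinesin of cytokinesis, had 8.63, 4.16 and 3.77 CPM with the mixture, against 24.5, 10.3 and 10.4 in unstimulated cells (-1.49 ± 0.46, adjusted p = 0.0198). Its unstimulated values spread widely, but all lay above the mixture values. Kif11, the kinesin that pushes spindle poles apart, had 9.34, 5.82 and 5.77 CPM, against 19.5, 10.5 and 13.6 in unstimulated cells (-1.11 ± 0.34), and Aurkb, a kinase of the chromosomal passenger complex, was at -1.05. Ccna2, the cyclin of S phase and G2, was at -0.98, and Plk1, a mitotic kinase, at -0.90, and the Plk1 groups overlapped. Mki67 (mm10 chr7:135689784-135716361, minus strand), which encodes the proliferation marker Ki-67, had 17.9, 21.02 and 19.3 CPM with the mixture, against 39.1, 27.6 and 23.0 in unstimulated cells (-0.67 ± 0.24, adjusted p = 0.0464). Cenpe, a kinetochore motor, was not called, with 15.6, 13.5 and 7.10 CPM in mixture cells and 16.32, 7.79 and 5.87 in unstimulated cells. Ccnb1 and Bub1, of mitotic entry and the spindle checkpoint, were at -0.26 and -0.41 and not called. The block added Top2a, Cdk1, Ccnb2, Aurka, Cenpf and Birc5, all lower, with adjusted p of 0.00267 to 0.0456.

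Cdkn1a (mm10 chr17:29090976-29100727, plus strand), the p21 inhibitor, had 864, 977 and 673 CPM with the mixture, against 181, 204 and 254 in unstimulated cells. Its log2 fold change was 1.92 ± 0.22, a 3.79-fold rise, with an adjusted p of 4.88e-06. Cyclin D1, encoded by Ccnd1 (chr7:144929931-144939925, minus strand), had 445, 469 and 1042 CPM with the mixture, against 159, 150.1 and 204 in unstimulated cells (1.87 ± 0.33, adjusted p = 0.000325). Replicate 3 stood far above the other mixture libraries for Ccnd1, and the groups did not overlap. Ccnd3 had 63.0, 60.9 and 79.2 CPM with the mixture, against 45.8, 22.7 and 47.8 in unstimulated cells (0.75 ± 0.25, adjusted p = 0.0269), and was not called with total counts alone (0.316). Ccnd2 (chr6:127125162-127152193, minus strand) had 248, 66.1 and 210.3 CPM with the mixture, against 139, 10.95 and 18.8 in unstimulated cells, so that the groups overlapped through replicate 1. It was not called without the block (1.62 ± 1.18, adjusted p = 0.354) and was called with it (2.32, adjusted p = 0.00137). Summed astrocyte markers ranged over 56.4 to 415 CPM within the mixture libraries and 36.2 to 332 within the unstimulated ones, and their part in Ccnd2 was not tested. Cdkn2c (p18), which inhibits the partner kinases of D-type cyclins, fell, at -0.86, and Cdkn1b was at -0.53 and not called without the block. Ccne1, the cyclin E1 gene, and Ccng2 were at 0.15 and 0.16 and not called.

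**Figure D3:**
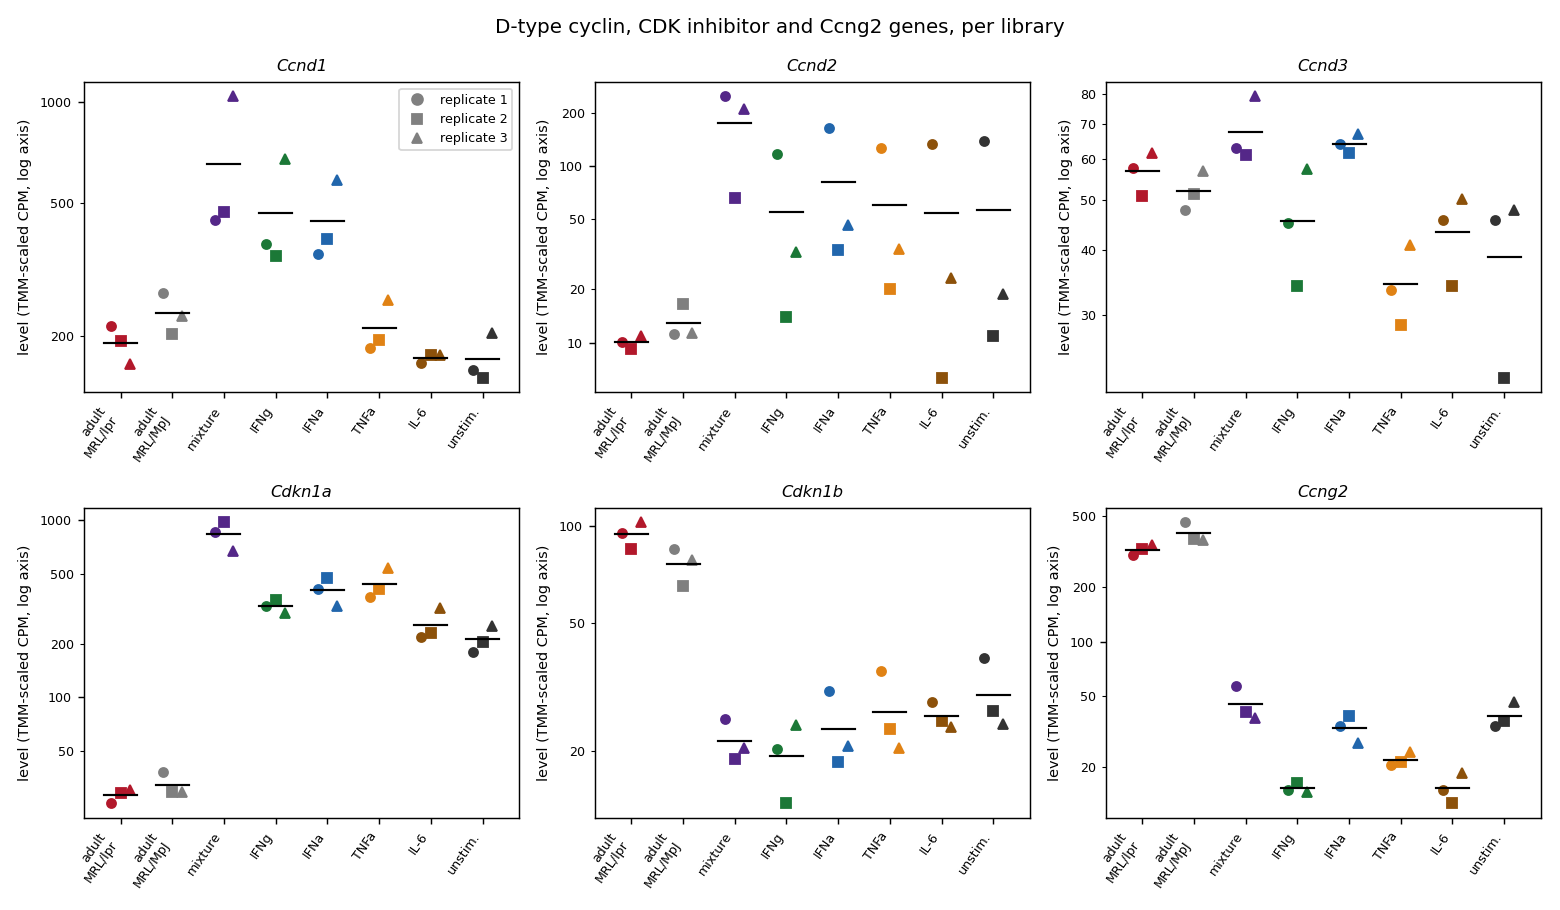
TMM-scaled CPM (y axis, log scale) of the D-type cyclin genes, Cdkn1a, Cdkn1b and Ccng2 in every library by group (x axis); symbols are replicates and bars the mean (n = 3). Ccnd2 is highest in replicate 1 of each neonatal group, and Ccng2 is above 300 CPM in all adult libraries and below 60 in all neonatal ones.

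Calls of 11 genes were kept under each of the 16 alternatives run: Mcm2, Mcm3, Mcm4, Mcm5, Mcm7, Rrm1, E2f1, Ccna2, Aurkb, Ccnd1 and Cdkn1a. The call of E2f2 was kept whichever single library was left out but was lost under 1 or more of the other alternatives. Leaving out 1 library ended other calls, at adjusted p of 0.0637 to 0.216. Mki67 was called under 5 of the 16 alternatives: it was lost without unstimulated replicate 1 or 2, without any 1 mixture replicate, without replicate 1 of all neonatal groups, with DESeq2, limma-voom or RLE scaling, and in the fits of the 2 groups alone or of all 24 libraries. Plk1 was lost without unstimulated replicate 1 or 3 or mixture replicate 2 or 3. Kif11 and Kif20a were lost without unstimulated replicate 1 or mixture replicate 2 or 3. Pcna was lost without unstimulated replicate 2 or 3 or mixture replicate 1 or 3, and Cdkn2c without unstimulated replicate 3 or mixture replicate 2 or 3. Cdt1 was lost without unstimulated replicate 1, and Ccnd3 without unstimulated replicate 2 or mixture replicate 3. Without mixture replicate 3, 13 genes were called. The fit of the 2 groups alone also ended the calls of Pcna, Plk1 and Ccnd3, and the absence of a low-count filter that of Pcna.

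Other genes of the same pathways moved both ways with the mixture, and their counts stand beside 15.7% of all genes higher and 16.4% lower. Of 44 further replication genes 6 rose and 17 fell, of 51 further mitotic genes 2 rose and 20 fell, and of 33 genes of RB, E2F and G1 control 2 rose and 13 fell. Melk, a kinase linked to mitosis, and Pttg1, the securin that holds back sister separation, were the 2 mitotic genes that rose, at 4.26 ± 0.57 (adjusted p = 3.42e-05) and 2.46 ± 0.26 on the log2 scale. Mxd1, which opposes Myc, rose by 5.20 ± 0.34, and the pocket protein gene Rbl1 by 2.38 ± 0.19. Rfc3, part of the clamp loader, rose by 2.48 ± 0.22. Of 28 further inhibitor, quiescence and p53 response genes 8 rose and 6 fell, of 19 damage checkpoint genes 2 rose and 5 fell, and of 16 growth factor and receptor genes of microglia 6 rose and 4 fell. Sesn1, a stress-response gene under p53, fell to a log2 fold change of -3.80 ± 0.40, and the checkpoint kinase gene Chek2 to -3.21 ± 0.36. Endothelial markers summed to 161 to 228 CPM with the mixture and 22.2 to 52.9 in unstimulated cells, with 2 of 5 called higher. Monocyte markers summed to 14.5 to 16.6 CPM with the mixture and 2.98 to 8.02 in unstimulated cells, with 1 of 5 called higher. Of the 10 microglial markers 4 rose and 2 fell, and the part of these cells in the results above was not tested.

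IFNg changed 8 of the 38 genes against unstimulated cells, 1 higher and 7 lower, while 12.9% of all genes tested were called (8.57% higher and 4.32% lower). Ccnd1 rose, and Ccng2, E2f2, E2f1, Mcm5, Mcm4, Gins2 and Rrm1 fell. Ccnd1 had 377, 348 and 678 CPM with IFNg, against 159, 150.1 and 204 in unstimulated cells (1.47 ± 0.32, adjusted p = 0.00563). Ccng2 (mm10 chr5:93267257-93276231, plus strand), an atypical cyclin that accompanies cell cycle arrest, had 14.9, 16.2 and 14.6 CPM with IFNg, against 33.7, 36.1 and 46.2 in unstimulated cells (-1.32 ± 0.20, adjusted p = 0.000252). The groups lay far apart for both genes. E2f1 had 18.26, 17.5 and 25.7 CPM with IFNg (-0.86 ± 0.19, adjusted p = 0.005), and E2f2 had 2.16, 2.85 and 3.40 (-1.01 ± 0.32, adjusted p = 0.046). Mcm5 had 50.5, 43.3 and 47.3 CPM with IFNg, against 66.0, 70.5 and 86.5 in unstimulated cells (-0.63 ± 0.13, adjusted p = 0.00403). Gins2 had 19.3, 14.8 and 16.9 CPM with IFNg, against 24.1, 26.9 and 27.3 in unstimulated cells (-0.59). Mcm4 had 29.8, 26.4 and 36.4 CPM with IFNg (-0.54), and Rrm1 62.9, 49.6 and 58.8, against 89.5, 74.0 and 77.7 in unstimulated cells (-0.46). No IFNg library overlapped an unstimulated one for any of the called genes. None of the 15 mitotic genes was called by edgeR without the block, and 0 had an unadjusted p under 0.05. Mki67 had 30.7, 18.8 and 17.31 CPM, Cenpe 12.21, 5.36 and 4.11 and Cdkn1a 328, 353 and 299 with IFNg; none was called, and the adjusted p of Cdkn1a was 0.0571. Mcm2 had 32.6, 28.1 and 36.4 CPM with IFNg and Ccnd3 45.2, 34.1 and 57.3. Ccnd2 had 118, 13.9 and 32.4 CPM, again highest in replicate 1. The 30 genes not called lay between -0.88 and 0.64 on the log2 scale.

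With the replicate block, 17 genes were called for IFNg, 2 higher and 15 lower, beside 14.7% of all genes higher and 8.97% lower in that fit. The additions were Cdkn1a, higher (0.65, adjusted p = 0.0298), and Mcm2, Mcm3, Mcm7, Rrm2, Cdk1, Plk1, Kif20a and Cdkn1b, lower. Without the block, Ccnd1, Ccng2, Mcm5 and E2f1 were called whichever single library was left out. Without replicate 1 of all 6 neonatal groups, 0 genes were called higher and 3 lower, so the call of Ccnd1 was lost. Calls of 2 of the 8 genes were kept under every alternative. Rrm1 was lost without unstimulated replicate 1 or 3 or IFNg replicate 2 or 3, Mcm4 without unstimulated replicate 1 or 3 or IFNg replicate 1 or 2, Gins2 without unstimulated replicate 2 or 3 or IFNg replicate 2 or 3, and E2f2 without any 1 of the 6 libraries, at adjusted p of 0.0588 to 0.183. E2f2 was also lost with no low-count filter or in the fit of the 2 groups alone, and Gins2 in the fit of all 24 libraries. Of the wider pathways, 4 of 44 replication genes rose and 4 fell, and 1 of 51 mitotic genes rose and 2 fell. Without the block, 8.57% of all genes tested were higher and 4.32% lower. The one that rose was Melk (2.06 ± 0.52, adjusted p = 0.0158), and Rbl1 rose by 1.59 ± 0.18 while its relative Rbl2 was at -1.14 ± 0.16.

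With IFNa, 6 of the 38 genes were called, 3 higher and 3 lower. Of all genes tested 14.5% were called (9.41% higher and 5.07% lower), so the share of the 38 called was near that of all genes. Mcm6, Ccnd1 and Cdkn1a rose, and E2f1, Mcm4 and Mcm5 fell, so that the subunit genes of 1 helicase moved in opposite directions. Mcm6 had 234, 255 and 280.4 CPM with IFNa, against 119, 137 and 148 in unstimulated cells. Its log2 fold change was 0.91 ± 0.17, a 1.88-fold rise, with an adjusted p of 0.00127, and the groups did not overlap. Mcm4 had 33.3, 28.3 and 30.7 CPM with IFNa, against 48.5, 40.7 and 48.2 in unstimulated cells (-0.59 ± 0.15, adjusted p = 0.0152). Mcm5 had 57.7, 53.1 and 57.8 CPM with IFNa (-0.42 ± 0.13, adjusted p = 0.0425). Mcm2, Mcm3 and Mcm7 were at -0.45, -0.36 and -0.47 and not called. Ccnd1 had 352, 389.7 and 588 CPM with IFNa (1.36 ± 0.32, adjusted p = 0.00823). Cdkn1a had 409, 474 and 327 CPM with IFNa, against 181, 204 and 254 in unstimulated cells (0.90 ± 0.21, adjusted p = 0.00765). E2f1 had 18.9, 20.8 and 30.7 CPM (-0.71 ± 0.18, adjusted p = 0.0153). All IFNa libraries were on one side of all unstimulated ones for these called genes. Mki67 had 26.3, 19.4 and 22.1 CPM with IFNa, and Cenpe had 19.6, 16.6 and 10.1. Mcm2 had 36.0, 34.9 and 34.7 CPM with IFNa, Ccnd2 164, 33.6 and 46.6 and Ccnd3 64.0, 61.5 and 66.9. The 32 genes not called lay between -0.93 and 0.71 on the log2 scale.

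With the block, 15 genes were called for IFNa, 5 higher and 10 lower, beside 14.31% of all genes higher and 11.07% lower. It added Ccnd3 (0.76, adjusted p = 0.000585) and Cdt1 (0.42) to those that rose and Mcm2, Mcm3, Mcm7, Rrm1, Rrm2, Ccna2 and Kif20a to those that fell. Without the block, Mcm6 and Ccnd1 were called whichever single library was left out. Without replicate 1 of all 6 neonatal groups, 1 gene was called higher and 1 lower, so Mcm6 and Ccnd1 were not both called. The call of 1 of the 6 genes was kept under every alternative. Mcm5 was lost without unstimulated replicate 2 or 3 or any 1 IFNa replicate, Mcm4 without unstimulated replicate 1 or 3 or IFNa replicate 2, E2f1 without unstimulated replicate 2 or 3 or IFNa replicate 1 or 2, and Cdkn1a without IFNa replicate 2, which left 2 calls; adjusted p were 0.0501 to 0.247. Mcm5 and E2f1 were also lost in the fit of the 2 groups alone, and Mcm5 with no low-count filter. Other replication genes moved both ways: 5 of 44 rose, led by Rfc3 (2.03 ± 0.22, adjusted p = 1.37e-05) and Mcm10 (1.40 ± 0.21), which links the helicase to polymerase, and 4 fell. Of 51 mitotic genes 3 rose and 4 fell, with Melk at 3.88 ± 0.56 and Pttg1 at 2.33 ± 0.25. These counts stand beside 9.41% of all genes higher and 5.07% lower without the block. Timeless, of the fork protection complex, rose by 1.80 ± 0.45. Endothelial markers summed to 178 to 218 CPM with IFNa and 22.2 to 52.9 in unstimulated cells, with 2 of 5 called higher, and their part in these results was not tested.

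TNFa raised Cdkn1a and lowered 7 genes, among them 5 of the 9 genes of licensing and helicase. That is 8 of 38 genes, 1 higher and 7 lower, while 8.1% of all genes tested were called (4.38% higher and 3.72% lower). Cdkn1a had 369.9, 410.5 and 537 CPM with TNFa, against 181, 204 and 254 in unstimulated cells (1.02 ± 0.21, adjusted p = 0.00485). Pcna (mm10 chr2:132249162-132253314, minus strand) had 262, 272 and 238 CPM with TNFa, against 379, 481 and 468 in unstimulated cells (-0.81 ± 0.14, adjusted p = 0.000858). Neither gene's groups overlapped, and Pcna was not called with IFNg, IFNa or IL-6, where it was at 0.08, -0.05 and 0.11; the difference between those cytokines and TNFa was not tested. Mcm2 had 34.1, 23.5 and 28.7 CPM with TNFa (-0.75 ± 0.18, adjusted p = 0.0157), and Mcm5 had 52.5, 48.5 and 43.5 (-0.65 ± 0.13, adjusted p = 0.0044). Mcm6 had 87.3, 82.5 and 103 CPM (-0.59 ± 0.17, adjusted p = 0.0388), below all unstimulated libraries. Cdt1 had 66.5, 69.2 and 62.9 CPM (-0.62 ± 0.18), Gins2 16.8, 17.9 and 17.4 (-0.61 ± 0.16) and Ccng2 20.5, 21.3 and 24.1 (-0.84 ± 0.19), with adjusted p of 0.0463, 0.0269 and 0.0108. Again no called gene had overlapping groups. Among the mitotic genes 0 of 15 were called by edgeR, also 0 at an unadjusted p under 0.05, and Mki67 had 37.1, 31.2 and 37.3 CPM with TNFa, against 39.1, 27.6 and 23.0 in unstimulated cells. The D-type cyclin genes Ccnd1, Ccnd2 and Ccnd3 were at 0.29, 0.11 and -0.19, and E2f1 at -0.34, none called. E2f1 had 30.5, 32.2 and 28.4 CPM with TNFa and Cenpe 8.74, 7.01 and 8.32. Ccnd2 had 127, 20.0 and 33.9 CPM with TNFa and Ccnd3 33.5, 28.7 and 40.8. The 30 genes not called lay between -0.99 and 0.29 on the log2 scale.

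With the block, 14 genes were called for TNFa, 1 higher and 13 lower, beside 8.98% of all genes higher and 8.40% lower. It added Mcm3, Mcm4, Mcm7, Rrm1, E2f2 and Cdkn2c. Without the block, Cdkn1a, Pcna and Mcm5 were called whichever single library was left out. Without replicate 1 of all 6 neonatal groups, 0 genes were called higher and 2 lower, so the call of Cdkn1a was lost. Calls of 2 of the 8 genes were kept under every alternative. Mcm2 was lost without unstimulated replicate 1 or TNFa replicate 2 or 3, Mcm6 without unstimulated replicate 2 or 3 or TNFa replicate 1 or 2, Cdt1 and Gins2 without unstimulated replicate 2 or 3 or any 1 TNFa replicate, and Ccng2 without unstimulated replicate 3 or TNFa replicate 1, at adjusted p of 0.0536 to 0.175. Cdt1 was also lost under the stricter low-count filter, and Gins2 with no filter or in the fit of all 24 libraries. Of 44 further replication genes 1 rose and 7 fell, beside 4.38% of all genes higher and 3.72% lower without the block. Those that fell included Dna2 (-1.29 ± 0.22, adjusted p = 0.00111), a nuclease of lagging-strand synthesis, and Gmnn (-0.82 ± 0.17), whose product geminin blocks Cdt1. Cdkn2b (p15), another inhibitor gene, rose by 2.03 ± 0.46 (adjusted p = 0.00958), and Cdk6, a kinase partner of D-type cyclins, by 1.05 ± 0.26.

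IL-6 lowered Ccng2 alone of the 38 genes, with 0.978% of all genes tested called (0.745% higher and 0.232% lower). Ccng2 had 14.9, 12.5 and 18.6 CPM with IL-6, against 33.7, 36.1 and 46.2 in unstimulated cells (-1.32 ± 0.20, adjusted p = 0.00229), and the groups did not overlap. Mcm5 had 47.6, 48.3 and 56.0 CPM with IL-6 (-0.54 ± 0.13, adjusted p = 0.0755) and was called with the block (adjusted p = 0.017), which made 2 calls, both lower, beside 1.85% of all genes lower and 3.04% higher. Cdkn1a, Ccnd1, E2f1 and Mki67 were at 0.27, 0.02, -0.36 and -0.18 and not called. Cdkn1a had 219, 231 and 318 CPM with IL-6, Ccnd1 166, 176 and 175 and E2f1 26.4, 28.1 and 33.5. Mki67 had 34.2, 18.29 and 25.3 CPM with IL-6, Cenpe 8.90, 4.90 and 6.08 and Mcm2 43.4, 25.6 and 37.5. Ccnd2, at 133, 6.32 and 23.3 CPM, had its highest value in replicate 1, and Ccnd3 had 45.6, 34.1 and 50.2. The 37 genes not called lay between -0.56 and 0.27 on the log2 scale, and edgeR called 0 of the 44, 51, 33, 28 and 19 genes tested in the wider lists of replication, mitosis, G1 control, inhibitors with quiescence and p53 response, and damage checkpoints. Of 16 growth factor and receptor genes of microglia 1 rose with IL-6, Csf2rb, a receptor subunit for GM-CSF (1.65 ± 0.25, adjusted p = 0.00255). Of all 38 genes, 6 had an unadjusted p under 0.05. Without replicate 1 of all 6 neonatal groups, an alternative chosen after seeing the data, 0 genes were called, with an adjusted p of 0.0871 for Ccng2. In that fit 0.156% of all genes were called higher and 0.0212% lower.

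**Figure D4:**
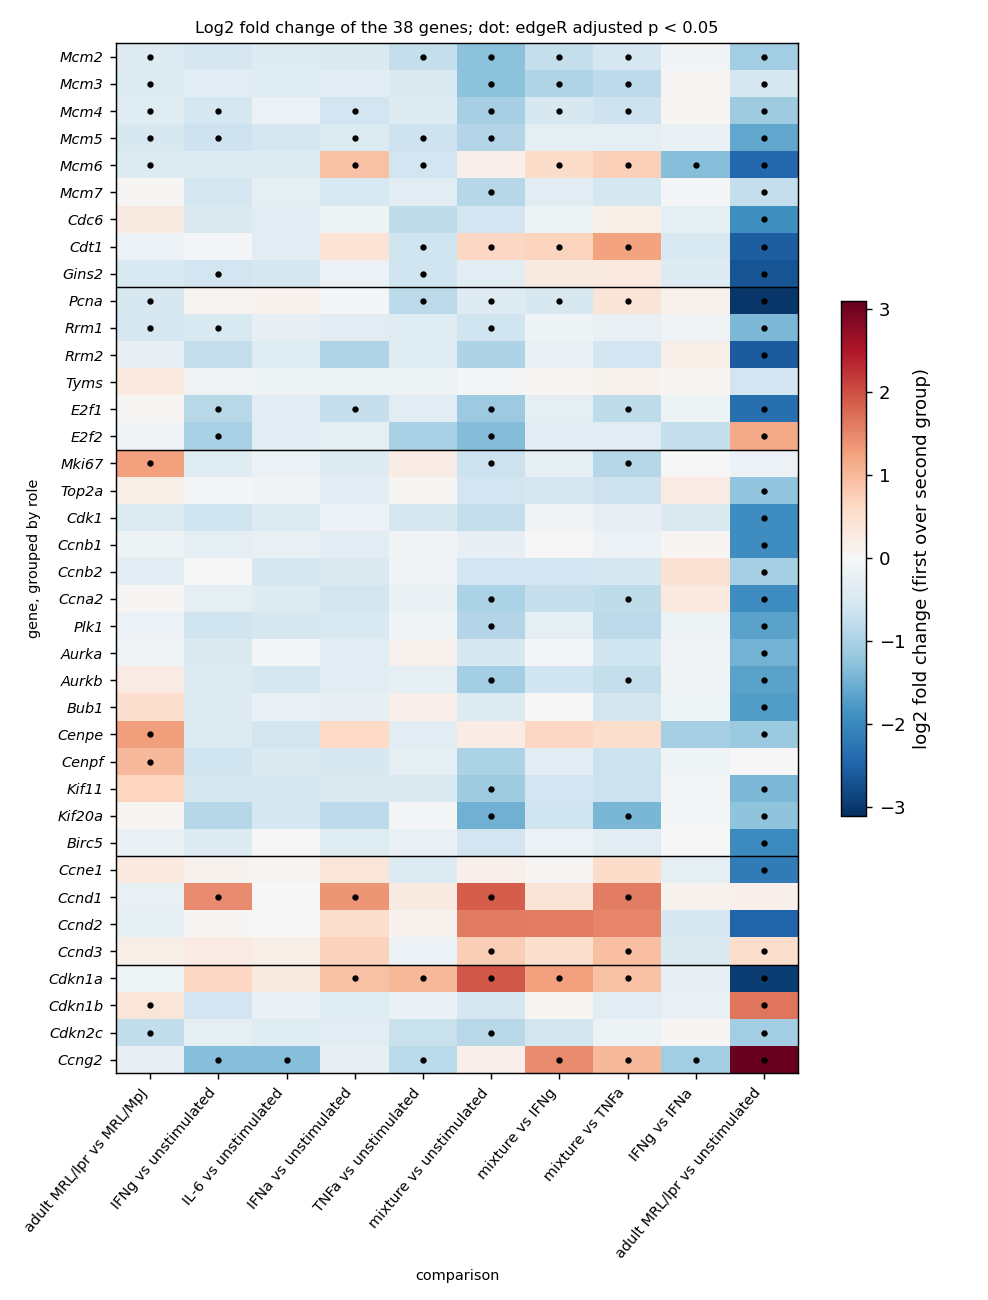
Log2 fold change (colour, first over second group) of the 38 genes (rows, grouped by role) in the 10 comparisons (columns); dots mark an edgeR adjusted p under 0.05. The mixture column has 20 dots and the column of adult MRL/lpr against unstimulated neonatal cells 33.

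The mixture differed from IFNg alone in 8 of the 38 genes, 4 higher (6.45% of all genes tested) and 4 lower (7.83% of all). Ccng2, Cdkn1a, Cdt1 and Mcm6 were higher with the mixture, and Mcm3, Mcm2, Mcm4 and Pcna were lower. Ccng2 had 56.7, 40.7 and 37.4 CPM with the mixture, against 14.9, 16.2 and 14.6 with IFNg (1.48 ± 0.20, adjusted p = 0.000137). Cdkn1a was at 1.28 ± 0.21 (adjusted p = 0.000799) and Mcm3 at -0.94 ± 0.20 (adjusted p = 0.00507), both without overlap. Mcm3 had 30.3, 26.0 and 34.3 CPM with the mixture, against 49.1, 47.3 and 67.5 with IFNg. Pcna had 341, 367 and 332 CPM with the mixture, against 436, 519 and 424 with IFNg. The Cdt1 values were 130.5, 169.6 and 185 CPM with the mixture, against 77.1, 92.7 and 115 with IFNg. Every mixture library was on one side of every IFNg library for these genes. Mcm4 had 26.7, 18.8 and 24.3 CPM with the mixture, against 29.8, 26.4 and 36.4 with IFNg. Cdt1, Mcm6, Mcm2, Mcm4 and Pcna were at 0.69, 0.56, -0.74, -0.49 and -0.49, and the Mcm4 groups overlapped. Ccnd1 did not pass the test between the mixture and IFNg (0.40 ± 0.32, adjusted p = 0.503). The block gave 17 calls, 6 higher and 11 lower, beside 11.9% of all genes higher and 14.4% lower. Total counts alone, which shifts the median of all genes by -0.23, gave 3 higher and 8 lower and did not call Mcm6. Over all genes that scaling called 5.025% higher and 18.9% lower. Ccng2, Cdkn1a and Mcm3 were called whichever single library was left out, and calls of 2 of the 8 genes were kept under every alternative. Mcm4 was lost without IFNg replicate 1 or 3 or any 1 mixture replicate, Mcm2 without IFNg replicate 3 or mixture replicate 2 or 3, Pcna without IFNg replicate 2 or any 1 mixture replicate, Mcm6 without IFNg replicate 1 or 2 or mixture replicate 2, and Cdt1 without IFNg replicate 1 or 2, at adjusted p of 0.0511 to 0.391. Mcm4 was called under 3 of the 16 alternatives and was also lost with DESeq2, limma-voom, RLE scaling, either other filter, the fits of the 2 groups alone or of all 24 libraries, and without replicate 1 of all neonatal groups. The fit of the 2 groups alone also ended the calls of Mcm2, Mcm6, Pcna and Cdt1, and the absence of a filter that of Pcna.

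Against TNFa alone, the mixture changed 15 genes, 7 higher and 8 lower, beside 12.6% of all genes tested in each direction. Ccnd1, Cdt1, Ccng2, Ccnd3, Cdkn1a, Mcm6 and Pcna were higher, and Kif20a, Mki67, Mcm3, E2f1, Ccna2, Aurkb, Mcm4 and Mcm2 were lower. Ccnd1 had 445, 469 and 1042 CPM with the mixture, against 185, 194 and 256 with TNFa (1.58 ± 0.32, adjusted p = 0.00166). Cdt1 had 130.5, 169.6 and 185 CPM with the mixture, against 66.5, 69.2 and 62.9 with TNFa (1.26 ± 0.18, adjusted p = 0.000101). Kif20a had 8.63, 4.16 and 3.77 CPM with the mixture, against 19.1, 11.7 and 12.5 with TNFa. Mcm3 had 30.3, 26.0 and 34.3 CPM with the mixture, against 53.8, 48.01 and 53.2 with TNFa. Kif20a, Ccng2, Ccnd3, Cdkn1a, Mki67 and Mcm3 were at -1.42, 1.00, 0.94, 0.90, -0.89 and -0.81. The groups of Mcm2 overlapped. The block gave 23 calls, 8 higher and 15 lower, beside 17.9% of all genes higher and 19.1% lower. Total counts alone, which shifts the median of all genes by -0.343, gave 5 higher and 14 lower and called neither Pcna nor Ccnd3. Over all genes that scaling called 9.11% higher and 28.6% lower. Calls of Mcm2, Pcna, Ccna2, Aurkb, Kif20a, Mki67, Mcm4 and Ccnd3 were each lost without at least 1 of the 6 libraries: TNFa replicate 1 (Mcm2, Pcna, Ccna2 and Kif20a), 2 (Pcna and Ccnd3) or 3 (Mcm2, Pcna, Ccna2 and Aurkb), or mixture replicate 1 (Mki67), 2 (Mcm2, Mcm4, Pcna, Ccna2, Aurkb and Kif20a) or 3 (Mcm2, Mki67, Ccna2, Aurkb and Kif20a). Their adjusted p were 0.0509 to 0.251, and 10 genes were called without mixture replicate 2 or 3. Mcm2 was called under 6 of the 16 alternatives and was also lost with DESeq2, limma-voom, RLE scaling, no filter, the fit of the 2 groups alone, and without replicate 1 of all neonatal groups. The fit of the 2 groups alone also ended the calls of Pcna and Aurkb, and the absence of a filter those of Pcna and Kif20a.

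IFNg and IFNa were also compared directly, and 2 of the 38 genes were called, 0 higher with IFNg (2.81% of all genes tested) and 2 lower (2.36% of all). Mcm6 had 88.1, 107 and 105 CPM with IFNg, against 234, 255 and 280.4 with IFNa (-1.31 ± 0.17, adjusted p = 0.000434). Ccng2 had 14.9, 16.2 and 14.6 CPM with IFNg, against 33.9, 38.4 and 27.1 with IFNa (-1.07 ± 0.20, adjusted p = 0.004). Neither gene's groups overlapped. Ccnd1, E2f1 and Cdkn1a did not pass the test between the interferons, at 0.12 ± 0.32, -0.15 ± 0.19 and -0.26 ± 0.21. The block gave 5 calls, all lower with IFNg, beside 7.56% of all genes higher and 6.51% lower. It added Cdt1 (-0.48), Ccnd3 (-0.48) and Cenpe (-1.12, adjusted p = 0.00844). Pttg1 and Mcm10, from the wider lists, were lower with IFNg, at -1.79 ± 0.25 and -1.39 ± 0.21. The comparisons with unstimulated cells share those 3 libraries, and those that include the mixture share its 3.

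Untreated adult microglia were compared between the strains. In MRL/lpr, 12 of the 38 genes were called against MRL/MpJ, 4 higher and 8 lower, while 45.7% of the 13799 genes tested were called (24.1% higher and 21.6% lower). Of the 9 licensing genes 5 fell, of the 6 S phase genes 2 fell, and 3 of 15 mitotic genes were about 2-fold higher or more. In this fit of the adult libraries, the shares of the 38 genes called in either direction did not exceed those of all genes. In the fit of all 24 libraries 1 of the 38 was called higher and 8 lower, and Cenpe, Cenpf and Cdkn1b were not called. Cenpe had 5.73, 2.604 and 5.20 CPM in MRL/lpr, against 2.47, 2.48 and 0.851 in MRL/MpJ (1.29 ± 0.47, adjusted p = 0.0422). Mki67 had 29.0, 22.3 and 27.6 CPM in MRL/lpr, against 6.42, 13.6 and 14.0 in MRL/MpJ (1.28 ± 0.25, adjusted p = 0.00133). Cenpf, a kinetochore protein gene, had 10.19, 7.40 and 10.7 CPM in MRL/lpr, against 2.68, 5.59 and 6.42 in MRL/MpJ (1.01 ± 0.31, adjusted p = 0.0205). The strains did not overlap for these genes. The other 12 genes of G2 and mitosis were not called, and 6 of the 15 had a log2 fold change below 0. Cdk1 had 7.73, 7.71 and 8.53 CPM in MRL/lpr, against 10.7, 12.6 and 10.5 in MRL/MpJ (-0.43 ± 0.19, adjusted p = 0.0841).

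Of the licensing genes, Mcm2, Mcm3, Mcm4, Mcm5 and Mcm6 fell in MRL/lpr, with log2 fold changes of -0.40, -0.44, -0.39, -0.49 and -0.42, and Mcm7 was at 0.04. Mcm2 had 24.1, 22.0 and 21.3 CPM in MRL/lpr, against 29.3, 30.8 and 33.1 in MRL/MpJ. Mcm3 had 53.5, 51.2 and 42.0 CPM in MRL/lpr, against 61.5, 70.2 and 75.7 in MRL/MpJ (adjusted p = 0.0149). Mcm5 had 23.9, 26.0 and 23.4 CPM in MRL/lpr, against 30.6, 33.9 and 43.5 in MRL/MpJ (adjusted p = 0.017). Rrm1 had 27.7, 33.6 and 30.6 CPM in MRL/lpr, against 49.4, 46.3 and 42.8 in MRL/MpJ (-0.53 ± 0.12, adjusted p = 0.00475). Pcna had 52.7, 59.4 and 53.05 CPM in MRL/lpr, against 91.1, 76.4 and 77.4 in MRL/MpJ (-0.50 ± 0.11, adjusted p = 0.00332). No strain values overlapped for these called genes. With total counts alone, which shifts the median of all genes by 0.261, none of these 7 was called (Pcna at -0.24, adjusted p = 0.0904). The split became 6 higher and 1 lower, beside 34.7% of all genes higher and 10.4% lower. Ccnd3 and Kif11 were added to those higher. Cdkn2c had 9.37, 11.3 and 11.25 CPM in MRL/lpr, against 17.8, 19.4 and 19.4 in MRL/MpJ (-0.76 ± 0.16, adjusted p = 0.00219). Cdkn1b had 94.6, 84.7 and 103 CPM in MRL/lpr, against 84.7, 65.1 and 78.3 in MRL/MpJ (0.37 ± 0.12, adjusted p = 0.0264), and its strains touched. Cdkn1a, Ccnd1, Ccnd2, Ccnd3 and E2f1 were at -0.14, -0.23, -0.30, 0.19 and 0.03 and not called. Cdkn1a had 25.1, 28.7 and 29.9 CPM in MRL/lpr, against 37.8, 29.2 and 29.3 in MRL/MpJ. Ccnd1 had 214, 194 and 165 CPM in MRL/lpr, against 270.0, 203 and 229 in MRL/MpJ. Ccnd3 had 57.7, 51.0 and 61.5 CPM in MRL/lpr, against 47.7, 51.4 and 56.8 in MRL/MpJ. E2f1 had 7.01, 8.12 and 7.29 CPM in MRL/lpr, against 5.93, 7.19 and 9.89 in MRL/MpJ, with overlapping values for each of these 4. Ccnd2 was low in both strains, with 10.1, 9.14 and 10.9 CPM in MRL/lpr and 11.16, 16.5 and 11.3 in MRL/MpJ. The 26 genes not called lay between -0.47 and 0.68 on the log2 scale.

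Leaving out 1 adult library ended many of these calls. Mki67, Pcna, Rrm1 and Cdkn2c were called whichever library was left out. Mcm2, Mcm4, Mcm5, Mcm6, Cenpe, Cenpf and Cdkn1b were lost without MRL/lpr replicate 1 (5 calls), these and Mcm3 without MRL/lpr replicate 3 (4 calls), and Mcm2, Mcm3, Mcm4, Mcm5, Mcm6, Cenpe and Cdkn1b without MRL/MpJ replicate 3 (6 calls). Mcm2 and Mcm4 were lost without MRL/lpr replicate 2, Cenpe and Cenpf without MRL/MpJ replicate 1, and Mcm4 and Cdkn1b without MRL/MpJ replicate 2. Adjusted p of the lost calls were 0.0531 to 0.169, and no called gene changed sign. With no low-count filter 9 genes were called, 4 higher and 5 lower, and Mcm2 and Mcm4 were among the calls lost. Over all genes that fit called 16.5% higher and 10.7% lower. Counts of MRL/lpr replicates 1 and 3 differed least of all pairs within a group, with a chi-square per degree of freedom of 5.07. It was 23.3 and 26.9 for the other MRL/lpr pairs and 17.9 to 23.1 for the MRL/MpJ pairs. Why these libraries are so alike is not in the labels, and the adult p-values may rest on too small a spread.

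Gene length and markers of other cells moved with the adult comparison. Over all genes tested, sorted by length into 5 groups of near-equal size, the median log2 fold change was -0.17, -0.10, -0.04, 0.06 and 0.22 from the shortest genes to the longest. Across the 15 genes of G2 and mitosis, Spearman's rho between length and log2 fold change was 0.689, beside 0.313 over the 38 genes and 0.145 over all genes; the genes share the same 6 libraries, and this is a description. Cenpf, Mki67 and Cenpe are 15433, 10061 and 8620 bases long in the table. Top2a, also of mitosis and 9013 bases long, was not called (0.17 ± 0.20, adjusted p = 0.501). Malat1, a long RNA kept in the nucleus, had 1111, 787 and 1053 CPM in MRL/lpr, against 69.8, 167 and 120 in MRL/MpJ. Of the microglial markers 8 of 10 fell in MRL/lpr. Natural killer cell markers summed to 39.2 to 49.2 CPM in MRL/lpr, against 5.70 to 18.4 in MRL/MpJ, with 4 of 5 called higher and Klre1 at 0 in MRL/MpJ. Markers of B or plasma cells summed to 484 to 619 CPM in MRL/lpr, against 362 to 387 in MRL/MpJ (2 of the 4 tested called higher), and T cell markers to 7.91 to 11.3 CPM, against 5.03 to 9.74 in MRL/MpJ (2 of 6 called higher). The part of length and of these cells in the mitotic genes was not tested.

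**Figure D5:**
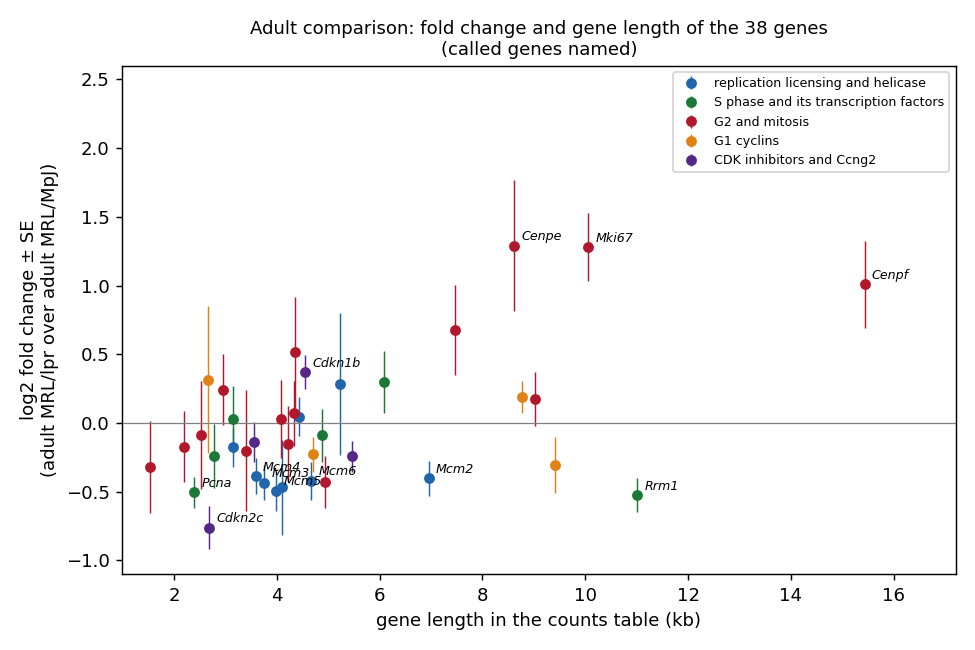
Log2 fold change ± SE (y axis, adult MRL/lpr over adult MRL/MpJ) of the 38 genes against gene length in kb (x axis), coloured by role, with called genes named. Cenpe, Mki67 and Cenpf are the called genes over 8 kb with higher levels in MRL/lpr, while Rrm1, of 11012 bases, is lower.

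Genes of the wider lists in the adult comparison moved in both directions, and their counts stand beside 24.1% of all genes higher and 21.6% lower. Of 51 mitotic genes 10 rose and 3 fell in MRL/lpr, with Kif15, a spindle kinesin, at 2.37 ± 0.46 (adjusted p = 0.00133). Of 43 replication genes tested 8 rose and 6 fell, with Cdc7, the kinase that fires origins, at 1.59 ± 0.43. Of 28 further inhibitor, quiescence and p53 response genes 3 rose and 11 fell, with Mdm4, a p53 inhibitor, at 2.40 ± 0.15 and Ddit4 at -3.23 ± 0.56. All 6 called DNA damage checkpoint genes of the 19 tested were higher, among them Brca2 at 1.57 ± 0.42.

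Adult MRL/lpr microglia were last set against unstimulated neonatal MRL/lpr microglia in the fit of all 24 libraries. Age and culture cannot be told apart here, since adult cells were not cultured and all neonatal cells were. Of the 38 genes 33 were called, 4 higher and 29 lower, while 55% of the 15859 genes tested were called (29.2% higher and 25.8% lower). All 9 genes of licensing and helicase fell, as did 13 of 15 genes of G2 and mitosis, and the median log2 fold change of the 38 genes was -1.43, beside 0.07 over all genes. Ccng2 had 303, 326 and 342 CPM in adult MRL/lpr, against 33.7, 36.1 and 46.2 in unstimulated neonatal cells (3.07 ± 0.18, 8.38-fold higher, adjusted p = 1.52e-11). Pcna had 52.7, 59.4 and 53.05 CPM in adult MRL/lpr, against 379, 481 and 468 in neonatal cells (-3.01 ± 0.13, adjusted p = 8.86e-14). Cdkn1a had 25.1, 28.7 and 29.9 CPM in adult MRL/lpr, against 181, 204 and 254 in neonatal cells (-2.93 ± 0.20, adjusted p = 1.32e-10). The groups were far apart for all of these. Gins2 had 4.096, 4.34 and 3.72 CPM in adult MRL/lpr, against 24.1, 26.9 and 27.3 in neonatal cells (-2.68 ± 0.24). Rrm2 had 6.45, 6.94 and 5.48 CPM in adult MRL/lpr, against 51.9, 26.8 and 34.6 in neonatal cells (-2.58 ± 0.45). Cdt1 had 16.28, 18.28 and 16.9 CPM in adult MRL/lpr, against 91.7, 101 and 109 in neonatal cells. Mcm6 had 24.2, 25.6 and 24.6 CPM and E2f1 7.01, 8.12 and 7.29 in adult MRL/lpr, against 119, 137 and 148 and 35.4, 38.1 and 40.0 in neonatal cells. Again no adult library reached a neonatal one. Cdt1, Mcm6 and E2f1 were at -2.55, -2.44 and -2.34, and the other genes that fell lay between -2.17 and -0.52.

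Against that direction, Cdkn1b had 94.6, 84.7 and 103 CPM in adult MRL/lpr and 38.8, 26.6 and 24.1 in unstimulated neonatal cells (1.66 ± 0.24, adjusted p = 4.52e-06). E2f2 had 14.2, 12.3 and 12.6 CPM in adult MRL/lpr, against 7.14, 5.47 and 4.75 in neonatal cells (1.17 ± 0.27, adjusted p = 0.00114), while E2f1 fell. Ccnd3 rose by 0.55 ± 0.22. Mki67, Cenpf, Ccnd1, Ccnd2 and Tyms were not called, at -0.18, 0.02, 0.16, -2.48 and -0.59. Ccnd2 had 10.1, 9.14 and 10.9 CPM in adult MRL/lpr, below every neonatal unstimulated value, but the neonatal spread was wide. Of 51 further mitotic genes 2 rose and 37 fell, and of 44 replication genes 3 rose and 23 fell, with Mcm10 at -2.71 ± 0.33. Over all genes tested 29.2% were higher and 25.8% lower. The calls of Mcm3, Ccnd3, Cenpe and Kif20a were lost when 1 library was left out: without unstimulated replicate 1 (Cenpe and Kif20a), 2 (Mcm3, Ccnd3 and Cenpe) or 3 (Mcm3), or without adult MRL/lpr replicate 1 (Ccnd3), 2 (Cenpe) or 3 (Mcm3, Ccnd3, Cenpe and Kif20a), at adjusted p of 0.0541 to 0.324. In the fit of these 2 groups alone Ccnd3 was not called, and Cenpe was not called with limma-voom, total counts alone or no filter.

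Markers of several cell types moved with this comparison. Of the microglial markers 9 of 10 were higher in the adult group. Natural killer cell markers summed to 39.2 to 49.2 CPM in adult MRL/lpr and 0.0559 to 0.068 in unstimulated cells, with 4 of 5 called higher and Klre1, Gzma and Prf1 at 0 in unstimulated cells. Markers of B or plasma cells summed to 484 to 619 CPM in adult MRL/lpr and 5.36 to 15.5 in unstimulated cells, with all 4 tested called higher. Neutrophil markers summed to 229 to 259 CPM in adult MRL/lpr and 7.04 to 115 in unstimulated cells (2 of 7 higher), endothelial markers to 163.5 to 189.3 CPM in adult MRL/lpr and 22.2 to 52.9 in unstimulated cells (3 of 5 higher), and monocyte markers to 37.0 to 105 CPM in adult MRL/lpr and 2.98 to 8.02 in unstimulated cells (3 of 5 higher). Markers of neurons or neuroblasts summed to 3.00 to 9.65 CPM in adult MRL/lpr and 8.72 to 45.5 in unstimulated cells (3 of 5 lower). Of T cell markers 2 of 6 were higher and 1 lower, of mural or fibroblast markers 2 of 6 were higher and 2 lower, both erythroid markers tested were higher, and 1 marker each of astrocytes and of oligodendrocyte precursors was lower. Their part in these results was not tested.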

How the data were processed

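RNA-seq of 24 libraries was analysed from the deposited table of raw counts per gene, which the authors made from reads. Trimming with cutadapt 2.1, alignment with STAR 2.7.1a and the mm10 build are per the submitters' processing notes, while the sources used here do not give the counting program or how it used strand. Per the labels, RNA was purified on columns and libraries made with a directional kit. Gene symbols, lengths and identifiers came with the table, and coordinates from GENCODE M21 on mm10, which held 99.41% of the identifiers and all 38 genes. Of these, 15 overlap another annotated gene, so their counts are less certain. Mcm7, Rrm1, Cdt1, Top2a and Kif11 do so on their own strand. Promoter sequences are RefSeq's on GRCm38.p6.

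Counts were tested with edgeR 4.0.16 in R 4.3.3 (filterByExpr by group, TMM scaling, robust quasi-likelihood fit, Benjamini-Hochberg over all genes tested). The 6 adult libraries (13799 genes, 4 residual df) and the 18 neonatal ones (14626 genes, 12 df) were fitted apart, and adult against neonatal cells in a fit of all 24 (15859 genes, 16 df). Each SE is the fold change on the log2 scale over the root of F. Printed levels are CPM scaled by TMM over all 24 libraries, so their ratio can differ from a fitted fold change. All 38 genes are accounted for in each comparison. Values per library are given for up to 8 called genes with the largest change in each comparison and for Cdkn1a, Ccnd1, Ccnd2, Ccnd3, E2f1, Mki67, Mcm2 and Cenpe, and other genes are named from up to 3 called genes per wider list, with Rbl2 and the values of some further members, such as Cdk1 in adults and Mcm5 with IL-6, chosen after they were seen. The 38 genes and all lists were chosen with earlier results of these data known, and are no independent evidence.

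Same-numbered neonatal libraries deviated together from their group means (45 of 45 pairs of libraries over 0.1, r of 0.184 to 0.687), so blocked counts stand beside those results. The labels do not say what the numbers mark. Adult libraries were not treated as paired. Of 3 same-numbered pairs 2 were over 0.1 (r of 0.06 to 0.154), and 3 pairs cannot show whether the numbers match libraries. Tried besides were a fit with the replicate block, DESeq2 1.42.0, voom of limma 3.58.1, other scalings, filters and sample sets, and leaving out each library. Only the blocked fit took the replicate number into account. Calls lost without a library are thus from fits that ignore the pairing. Leaving out replicate 1 of all 6 neonatal groups was added after seeing the data. Library depth was 10084927 to 19316994 counts.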

Additional observations from a re-analysis of the deposited data

How the results depend on the processing

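No called gene changed sign under any alternative. Of the counts of called genes under alternatives, 120 stayed within 1.5 times the count reported and 36 did not. With the replicate block, which the pairing of neonatal libraries calls for, the count was 17 for IFNg, 2 for IL-6, 15 for IFNa, 14 for TNFa, 29 for the mixture, 17 for the mixture against IFNg, 23 for the mixture against TNFa and 5 for IFNg against IFNa, with no call lost. Over all genes the block also called more, from 3.04% higher and 1.85% lower for IL-6 up to 20.5% and 22.6% for the mixture. The block left the adult count at 12 and gave 34 for adult against neonatal cells, where the numbers were not taken to pair the libraries.

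With total counts as the only scaling, which shifts all genes, 7 of the 38 were called between the adult strains. Of all genes 34.7% were then called higher and 10.4% lower. For IL-6, DESeq2 and the fit of all 24 libraries each gave 2 calls, and for the mixture against IFNg the fit of those groups alone gave 3; the cause was not tested. Without replicate 1 of all 6 neonatal groups, with fewer samples, edgeR called 20 genes for the mixture (13% of all genes higher and 11.1% lower). It called 3 for IFNg (4.08% and 2.19%), 0 for IL-6 (0.156% and 0.0212%), 2 for IFNa (5.67% and 1.97%) and 2 for TNFa (2.78% and 1.98%). There were 4 for the mixture against IFNg (3.4% and 2.13%), 8 for the mixture against TNFa (8.7% and 7.01%) and 1 for IFNg against IFNa (0.219% and 0.262%). Leaving out single libraries gave 4 to 10 calls between adult strains, 4 to 6 for IFNg, 1 for IL-6, 2 to 5 for IFNa, 4 to 7 for TNFa, 13 to 20 for the mixture, 4 to 7 for the mixture against IFNg, 10 to 18 for the mixture against TNFa, 2 for IFNg against IFNa and 29 to 32 for adult against neonatal cells. Shares of all genes called mostly fell as well, as to 18.6% higher and 14.85% lower between adult strains without MRL/lpr replicate 3.

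With 3 libraries a group, genes of few counts such as Cenpe and E2f2 have wide errors, and a gene not called is not shown to be unchanged.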
